A study of Mus musculus with 21 samples.

Results

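The 10 mouse Toll-like receptor genes Tlr1, Tlr2, Tlr3, Tlr4, Tlr5, Tlr6, Tlr7, Tlr8, Tlr9 and Tlr13 were followed through 9 skin and 12 inguinal lymph node libraries of bulk poly-A RNA sequencing. They were chosen by gene symbol alone, and all 10 of them were found among the 55491 gene rows of each tissue's table. All 10 also passed the filter on low counts, which kept 19101 genes in skin and 16173 in lymph nodes. The study asked how interferon kappa made by the epidermis shapes lupus-like skin lesions and the response to ultraviolet B (UVB) light.

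Skin, all of it labelled as without treatment, came from BALB/c mice aged 12 months. There were 3 libraries of wild-type (WT) skin, 2 of nonlesional (NL) skin and 4 of lesional (L) skin, the latter groups both from Ifnk transgenic (TG) mice. The transgene places Ifnk, the gene of interferon kappa, under the keratin 14 promoter of basal keratinocytes, and the line was made on C57BL/6 and backcrossed to BALB/c. Lymph nodes that drain the skin came from WT and TG mice, each without UV treatment or after UVB at 250 mJ/cm2 on 3 days a week for 2 weeks and a further 2 weeks of observation, with 3 libraries in each of the 4 groups. The labels give neither sex nor mouse for any library and no age for the lymph node mice, and they do not say which libraries came from separate animals. For the UV-treated nodes the study counts as many mice of each genotype as there are libraries. For the other groups p-values measure only the spread between these samples, which may be technical.

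Toll-like receptors are sensors of microbial products and of nucleic acids. TLR1, TLR2, TLR4, TLR5 and TLR6 stand at the cell surface and bind lipopeptides, lipopolysaccharide or flagellin, whereas TLR3, TLR7, TLR8, TLR9 and TLR13 face the inside of endosomes and bind RNA or DNA. Most signal through the adaptor MyD88 and TLR3 through TRIF, and both routes end in NF-κB and interferon regulatory factors that switch on cytokine and type I interferon genes. The nucleic acid sensors TLR7 and TLR9 are well known in lupus, where they recognize self RNA and DNA carried by immune complexes in B cells and plasmacytoid dendritic cells.

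Libraries held 40499078 to 56511276 counts in skin and 27599809 to 36428435 in lymph nodes. Levels are given as CPM, a gene's count relative to its library's total after TMM scaling, and 3 counts, the floor used here, are 0.0541 to 0.0742 CPM in skin and 0.0811 to 0.109 CPM in lymph nodes. These floors cover counting error only. Ifnk itself had 0 counts in the 3 WT skin libraries and in all lymph node libraries, 5 to 14 counts in L skin, and 6 and 0 counts in the NL libraries 2 and 3, where 0 allows up to 3 counts. L libraries stood far from WT and NL libraries on the first axis of a multidimensional scaling plot, which held 76.8% of the variance, and they spread more widely along it. The Y-linked genes Ddx3y, Kdm5d, Eif2s3y and Uty had no counts in skin apart from 1 count of Uty, yet 2 of these libraries, NL 3 and L 6, held only 13 and 6 counts of Xist where the others held 3297 to 9353. All lymph node libraries expressed the Y-linked genes. This bears on Tlr7, Tlr8 and Tlr13, which lie on the X chromosome.

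Members were placed on GRCm38 with GENCODE M21. Tlr1 (chr5:64924679-64933563) and Tlr6 (chr5:64952031-64960097) are neighbours on the minus strand, and so are Tlr7 (chrX:167304929-167330558) and Tlr8 (chrX:167242696-167264329). The others are Tlr2 (chr3:83836272-83841767, minus), Tlr3 (chr8:45395665-45411080, minus), Tlr4 (chr4:66827584-66930284, plus), Tlr5 (chr1:182954788-182976044, plus), Tlr9 (chr9:106222598-106226883, plus) and Tlr13 (chrX:106143204-106160493, plus). All are protein coding, and reads of all but Tlr1, Tlr3 and Tlr6 had no stretch of 75 bases in common with another gene. An antisense gene, Gm45542, overlaps exons of Tlr3 on the other strand, and it had at most 1 count in any library.

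Tlr1 and Tlr6 both encode partners of TLR2 in the binding of lipopeptides and arose by duplication. Of all 75-base runs, 10.6% of those of Tlr1 and 9.25% of those of Tlr6 were also found in other genes, so part of their counts rests on how reads were shared out between them. The longest common stretch, shown because reads inside it cannot be placed by sequence, runs over 229 coding bases at chr5:64925537-64925765 in Tlr1 and at chr5:64953828-64954056 in Tlr6, both on the minus strand.
Stretch common to Tlr1 and Tlr6: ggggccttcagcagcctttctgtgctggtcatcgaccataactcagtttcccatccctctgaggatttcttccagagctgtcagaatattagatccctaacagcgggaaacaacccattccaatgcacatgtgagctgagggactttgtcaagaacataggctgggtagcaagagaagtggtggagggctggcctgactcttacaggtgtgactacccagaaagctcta
At its edges, with the common bases in capitals, the genes read as follows from 5′ to 3′.
Tlr1, 5′ edge: gaccttcctgggtgcGGGGCCTTCA
Tlr6, 5′ edge: gaccttcctgggtgtGGGGCCTTCA
Tlr1, 3′ edge: GAAAGCTCTAggggaactgcactga
Tlr6, 3′ edge: GAAAGCTCTAagggaactgcactga

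Levels between genes were compared per kilobase of exon (CPM per kb). The sum over the 10 members was 17.3 to 26.3 CPM per kb in WT skin, 15.5 to 18.1 in NL skin and 11.3 to 26.0 in L skin, and the 3 ranges overlapped. In lymph nodes the sum was 62.3 to 94.3 CPM per kb over the 12 libraries. The tissues were scaled separately, so these sums are set side by side without a test.

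Tlr4, the lipopolysaccharide receptor, had the highest mean level per length in WT skin (5.27 CPM per kb, 24.2% of the members' sum) and in NL skin (3.83 CPM per kb, 22.9%). In L skin Tlr2 came first (4.18 CPM per kb, 22.6%) and Tlr4 second (2.73 CPM per kb, 14.2%), with overlapping ranges. The order in WT skin went on with Tlr7, Tlr2, Tlr3 and Tlr8 (3.16 to 2.39 CPM per kb), then Tlr6, Tlr13, Tlr5, Tlr1 and Tlr9 (1.46 to 0.695 CPM per kb). The only neighbours in this order whose libraries did not overlap were Tlr8 and Tlr6. In L skin every pair of neighbours overlapped, and Tlr5 was the lowest at 0.760 CPM per kb.

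Lymph nodes had a different order. Tlr1 took the largest share in each of the 4 groups, from 52.3% to 59.5% of the members' sum, at means of 40.9 to 51.9 CPM per kb. Tlr9 (12.2 to 14.6 CPM per kb), Tlr6 (9.13 to 11.3) and Tlr7 (4.77 to 8.52) followed in every group by their means. Libraries of Tlr9 and Tlr6 overlapped in TG nodes without UV, and those of Tlr6 and Tlr7 in WT nodes after UV. Tlr2 and Tlr4 lay between 2.27 and 3.32 CPM per kb with overlapping libraries, Tlr3 between 0.510 and 1.39, and Tlr13 between 0.319 and 0.396. Tlr5 and Tlr8 were lowest, with 5 to 25 and 2 to 19 counts per library, close to the floor. Tlr1 did not overlap with Tlr9 in any of the 4 groups.

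**Figure D1:**
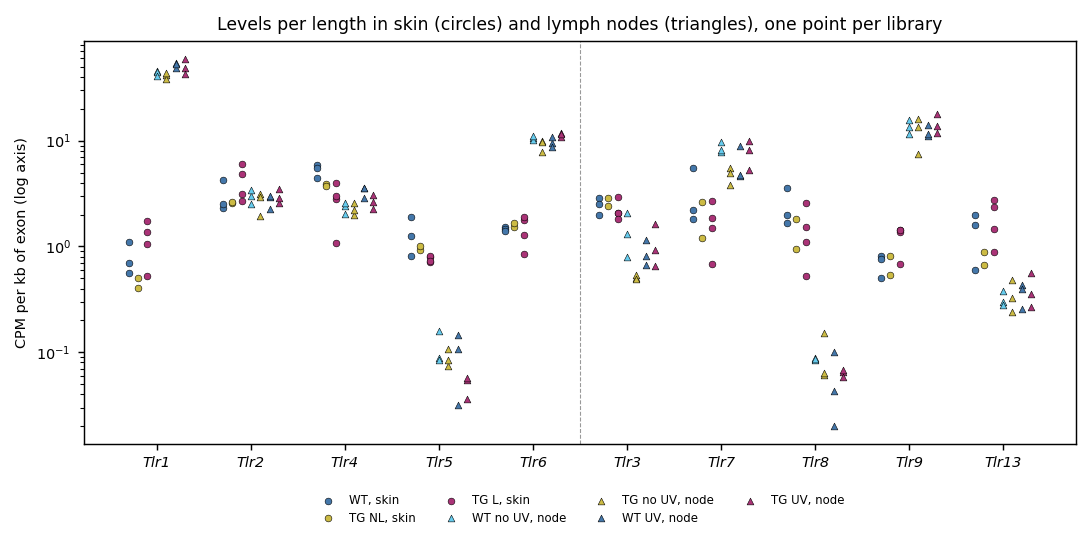
Level per length of each member in CPM per kb of exon on a log axis, with 1 point per library, circles for skin and triangles for lymph nodes, cell-surface receptors left of the dashed line and endosomal receptors right of it. Tlr1, Tlr9, Tlr6 and Tlr7 stand highest in lymph nodes, and Tlr5, Tlr8 and Tlr13 lie in skin above every lymph node library.

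The first comparison asked how the receptors differ between lesional TG and WT skin. The fit (edgeR, quasi-likelihood F-test, p-values adjusted over all tested genes by Benjamini-Hochberg, threshold 0.05) called 1 of the 10 members, Tlr5, which was lower, while 43.1% of all tested genes were called in this comparison (20.2% lower, 23.0% higher). The median log2 fold change of the members was -0.07, beside 0.06 over all genes, and 4 of 10 lay above 0. An unadjusted p under 0.05 was reached by 3 members, Tlr4, Tlr5 and Tlr9, beside 51.7% of all genes. Only Tlr4 and Tlr5 had all L libraries below all WT libraries, 2 of 10, where 49.4% of all genes had groups that did not overlap. The samples also differed in tissue makeup. Skeletal muscle markers summed to 17575 to 25913 CPM in WT, 19575 to 22632 in NL and 14.9 to 5113 in L. Per the study's methods, lesional skin was taken wherever it occurred and nonlesional skin from the back and from areas matching the lesions. The part of tissue makeup and body site in the comparisons with L was not tested.

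Tlr5, the flagellin receptor, had 3.90, 9.05 and 6.01 CPM in the WT libraries, 4.45 and 4.81 CPM in NL and 3.41, 3.77, 3.88 and 3.51 CPM in L. The L libraries lay closely together and just under the lowest WT library, and WT library 9 was the highest of all. The mean was 3.64 ± 0.220 CPM (SD, n = 4) in L and 6.32 ± 2.59 CPM (n = 3) in WT, and Tlr5 fell by 0.79 on the log2 scale (SE 0.26, 95% confidence interval -1.39 to -0.20, adjusted p = 0.0361). Without WT library 9 the log2 fold change was -0.46 with an adjusted p of 0.151, and leaving out any of 5 other libraries, WT 10 or any single L library, gave an adjusted p of 0.0575 to 0.0746. The call also did not stand without NL 3 and L 6 together (adjusted p = 0.0903) or against a log2 fold change of 1 (adjusted p = 1).

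Tlr4 had 24.4, 33.0 and 30.3 CPM in WT, 21.8 and 20.8 CPM in NL and 15.7, 6.02, 22.2 and 16.8 CPM in L. Both NL libraries lay under the WT range, and L library 5 was the lowest L library. The means were 15.2 ± 6.75 CPM (SD, n = 4) in L and 29.3 ± 4.41 CPM (n = 3) in WT, a log2 difference of -0.95 (SE 0.36, adjusted p = 0.0619). It passed the threshold in 5 alternatives, with DESeq2 (adjusted p = 0.0208), with at least 10 counts required in every library (0.0436), with Xist added to the model (0.044) and without L library 5 (0.0136) or 6 (0.0317). TLR4 is carried by macrophages, fibroblasts and adipocytes among others. The summed level of 8 macrophage markers was 409 to 1015 CPM in WT, 388 to 541 in NL and 245 to 687 in L, that of 4 adipocyte markers 2279 to 4094, 2038 to 2717 and 114 to 1324, and that of 5 fibroblast markers 2974 to 5236, 2067 to 3450 and 2379 to 5741. None of these markers was at 0 in any group, and of the macrophage, adipocyte and fibroblast markers 1 each was called, lower in L. Endothelial markers, 4 in all, summed to 175 to 250 CPM in WT, 148 to 189 in NL and 74.4 to 149 in L. Of these, 3 were called, all lower in L. The part of all these markers in the result was not tested. In bulk tissue fewer cells of a type and less RNA per cell cannot be told apart.

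The lipopeptide receptors Tlr1, Tlr2 and Tlr6 did not pass the test. Tlr1 had 1.89, 2.35 and 3.66 CPM in WT, 1.36 and 1.69 CPM in NL and 5.85, 1.75, 4.58 and 3.51 CPM in L, a log2 difference of 0.58 (SE 0.41, adjusted p = 0.28) between L and WT. L library 5 lay between the NL and the WT libraries and the other 3 L libraries at the top of the WT range or over it. Tlr2 ranged from 6.89 to 12.8 CPM in WT and from 8.14 to 18.2 CPM in L (log2 difference 0.47, SE 0.32, adjusted p = 0.264), and Tlr6 had the same mean of about 5.4 CPM in both (log2 difference -0.02, SE 0.26, adjusted p = 0.969). Its 95% confidence interval, -0.61 to 0.58, leaves room for a change in either direction.

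Of the endosomal receptors none passed the test between L and WT skin. Tlr9, the receptor of unmethylated CpG DNA, had 1.76, 2.83 and 2.67 CPM in WT, 1.87 and 2.80 CPM in NL and 4.93, 2.37, 4.8 and 4.97 CPM in L. All L libraries but number 5 lay over every WT and NL library. The log2 difference was 0.82 (SE 0.32, adjusted p = 0.0682), and it passed the threshold with DESeq2 (adjusted p = 0.0488) and without L library 5 (log2 fold change 1.02, adjusted p = 0.0152). B cell markers, 6 in all and none at 0 in any group, summed to 0.570 to 3.21 CPM in WT and 0.937 to 2.11 CPM in L. Tlr13, the mouse sensor of bacterial ribosomal RNA, had 2.60, 8.52 and 6.83 CPM in WT and 11.8, 3.82, 10.1 and 6.32 CPM in L, again with library 5 the lowest of the L group (log2 difference 0.42, SE 0.47, adjusted p = 0.5).

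Tlr7 and Tlr8 are the single-stranded RNA sensors. Tlr7 had 7.34, 22.3 and 9.10 CPM in WT, 4.89 and 10.8 CPM in NL and 7.59, 2.76, 11.0 and 6.04 CPM in L. Tlr8 had 7.07, 12.7 and 5.96 CPM in WT, 3.36 and 6.57 CPM in NL and 5.44, 1.87, 9.14 and 3.91 CPM in L. The same libraries were highest and lowest for both genes in NL and L, and WT library 9 was the highest WT library for both. The log2 differences between L and WT were -0.91 (SE 0.54, adjusted p = 0.202) and -0.75 (SE 0.51, adjusted p = 0.265). NL 3 and L 6, the libraries with next to no Xist counts, were the higher NL library and the highest L library for both. They were so for 8 and 7 of the 10 members, so this was not particular to Tlr7 and Tlr8. Plasmacytoid dendritic cells carry TLR7 and TLR9, and their 5 markers, none at 0 in any group, summed to 109 to 138 CPM in WT, 77.9 and 99.7 CPM in NL and 6.07 to 46.8 CPM in L. Most of the sum was Cox6a2, which skeletal muscle also expresses (111 CPM in WT, 10.7 CPM in L). Of the other markers Siglech fell (adjusted p = 0.0299), Ccr9 and Klk1 rose, and Pacsin1 was not called, and their part in the members' levels was not tested. Tlr3, the double-stranded RNA sensor that signals through TRIF, was the steadiest endosomal member, with 10.3 to 14.9 CPM in WT, 12.4 and 14.9 in NL and 9.53 to 15.4 in L (log2 difference -0.13, SE 0.20, adjusted p = 0.627).

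L library 5 was the lowest L library for 7 of the 10 members and L library 6 the highest for 7. Library 5 also had the lowest summed macrophage (245 CPM), monocyte (44.4), adipocyte (114) and skeletal muscle (14.9) markers of the L group, where the other 3 held 392 to 687, 67.5 to 156, 865 to 1324 and 229 to 5113 CPM. Library 5 was also the lowest L library for plasmacytoid dendritic cell (6.07 CPM), endothelial (74.4) and mast cell (95.7) markers. It was not the lowest for conventional dendritic cell, B cell, T cell, keratinocyte or fibroblast markers. The part of these markers in the members' levels was not tested. Neutrophil markers, by contrast, summed to 141 CPM in library 5, the second highest of the L range of 64.0 to 573 CPM, beside 10.3 to 20.4 in WT.

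**Figure D2:**
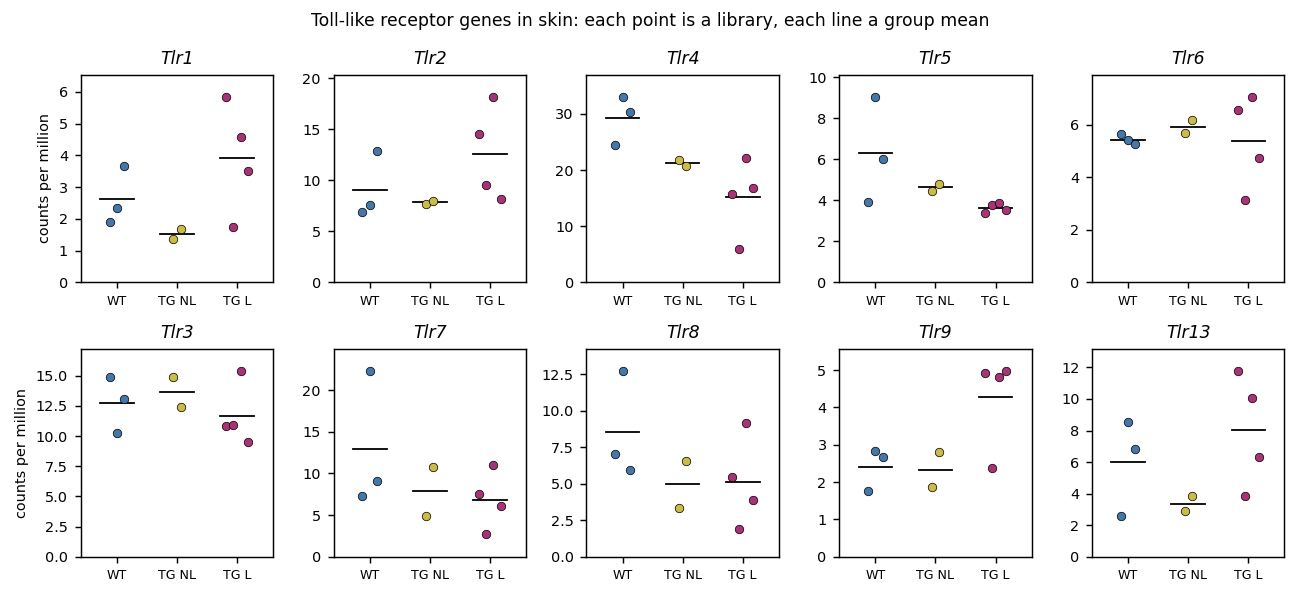
CPM of each member in skin, on linear axes from 0, with 1 point per library and a line at each group mean (3 WT, 2 TG NL and 4 TG L libraries). In Tlr5 the L libraries sit between 3.41 and 3.88 CPM under all WT libraries, and in Tlr9 all L libraries but 1, at 2.37 CPM, sit above WT.

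The second comparison set lesional against nonlesional TG skin. None of the 10 members was called by edgeR, where 25.0% of all genes were called, and 2 members had an unadjusted p under 0.05, where 39.0% of all genes did. DESeq2 called 1 member, Tlr1. Tlr1 had a mean of 3.92 ± 1.73 CPM (SD, n = 4) in L and 1.52 ± 0.237 CPM (n = 2) in NL, with no overlap, and a log2 difference of 1.37 (SE 0.49, adjusted p = 0.0704; 0.0179 without L library 5 and 0.0187 with DESeq2). Tlr9 (log2 difference 0.87, SE 0.37, adjusted p = 0.118) and Tlr13 (1.26, SE 0.56, adjusted p = 0.135) lay on the same side of 0 with overlapping libraries. Tlr9 passed the threshold without L library 5 (adjusted p = 0.0338).

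Tlr2 in L (8.14 to 18.2 CPM) lay just over NL (7.72 and 7.97 CPM), a log2 difference of 0.68 (SE 0.37, adjusted p = 0.205). Tlr5 in L lay under both NL libraries (log2 difference -0.35, SE 0.29, adjusted p = 0.421). In all, 3 of 10 members had groups that did not overlap, beside 49.4% of all genes. For Tlr3, Tlr4, Tlr6, Tlr7 and Tlr8 the log2 difference lay between -0.49 and 0.04, with adjusted p-values from 0.408 to 0.97.

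The third comparison set nonlesional TG against WT skin. No member was called by edgeR or DESeq2, 3 members had groups without overlap (Tlr1 and Tlr4 below WT, Tlr6 above it), beside 35.0% of all genes, no member had an unadjusted p under 0.05 (7.67% of all genes did), and edgeR called none of the 19101 genes. DESeq2 called 63 genes. The log2 differences ran from -0.83 (Tlr13, SE 0.58) to 0.12 (Tlr6, SE 0.31), 2 of 10 above 0, with a median of -0.45 beside -0.00114 over all genes. With 2 NL libraries the confidence intervals were wide, for example -2.23 to 0.79 for Tlr7, so that differences within them were not detectable.

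**Figure D3:**
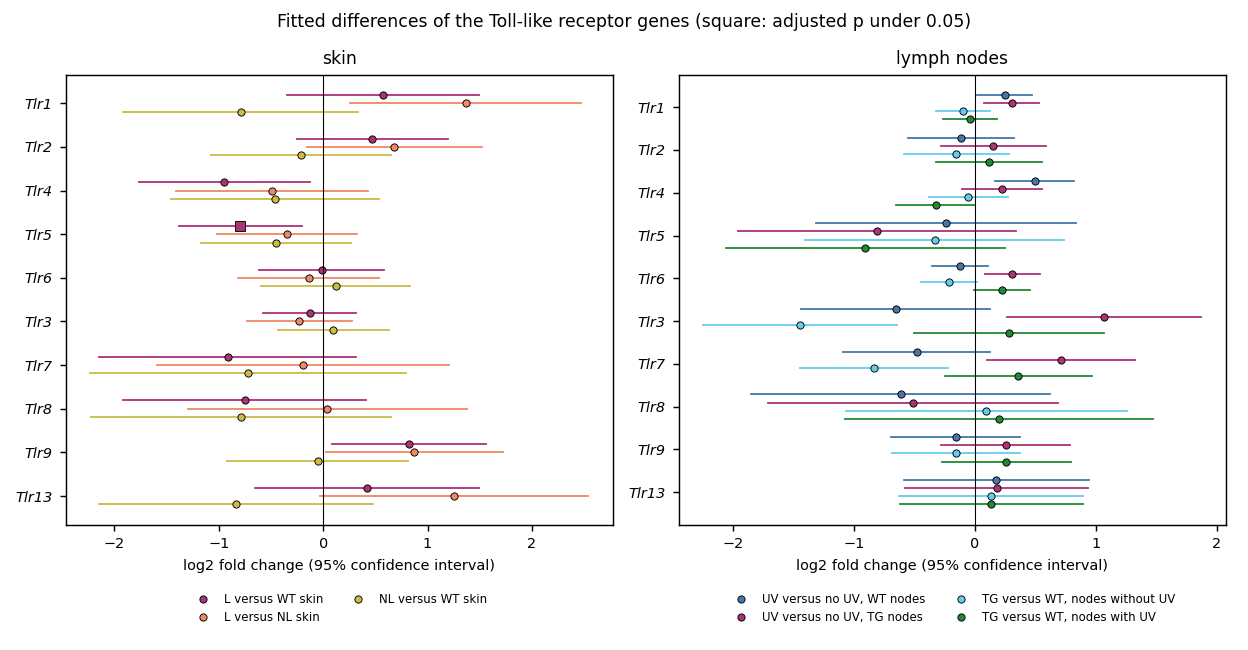
Fitted log2 fold changes of the members with 95% confidence intervals, skin comparisons on the left and lymph node comparisons on the right, with 1 colour per comparison. The square marks Tlr5 in L versus WT skin (-0.79), the only call, and among the 4 lymph node comparisons drawn, which leave out the interaction, Tlr3 in TG versus WT nodes without UV lies farthest from 0 (-1.45, not called).

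Where the promoter of a member is listed by RefSeq, the 250 bases before the start were searched on both strands for an interferon-stimulated response element core (GAAA boxes set a pair of bases apart), a GAS element (TTCNNNGAA), a PU.1 site (GAGGAAGT), an AP-1 site (TGANTCA) and a κB site. Listed promoters were found for 8 members, 10 in all. Of all 32851 listed promoters, 2.98% held the response element core, 7.02% the GAS element, 2.44% the PU.1 site, 6.75% the AP-1 site and 7.25% the κB site. Matches are given as a description of these letters only. The promoters of Tlr5, of Tlr9, whose L libraries separated into 3 and 1, and of Tlr6 at its downstream start are shown from GRCm38.p6, 5′ to 3′, with matches in capitals.
Tlr5, chr1:182954538-182954787, plus strand: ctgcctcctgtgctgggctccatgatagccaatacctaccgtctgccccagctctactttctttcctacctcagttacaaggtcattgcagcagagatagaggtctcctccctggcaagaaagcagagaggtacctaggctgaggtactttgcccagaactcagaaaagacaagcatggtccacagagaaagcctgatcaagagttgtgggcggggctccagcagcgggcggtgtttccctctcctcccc
Tlr9, chr9:106222348-106222597, plus strand: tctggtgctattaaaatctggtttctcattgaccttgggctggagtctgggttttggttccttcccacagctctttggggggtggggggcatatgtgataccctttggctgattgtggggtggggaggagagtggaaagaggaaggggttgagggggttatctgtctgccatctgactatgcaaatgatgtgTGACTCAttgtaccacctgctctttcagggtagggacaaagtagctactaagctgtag
Tlr6, chr5:64959167-64959416, minus strand: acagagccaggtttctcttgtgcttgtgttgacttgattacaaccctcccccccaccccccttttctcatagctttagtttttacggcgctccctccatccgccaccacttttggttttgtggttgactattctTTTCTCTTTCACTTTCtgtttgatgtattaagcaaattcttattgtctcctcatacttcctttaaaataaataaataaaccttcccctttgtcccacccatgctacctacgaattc
The Tlr5 window held none of the motifs. The Tlr9 window held an AP-1 site 58 bases before the start. The Tlr6 window held a pair of overlapping response element cores on the opposite strand, 116 and 110 bases before the start. Of the windows not shown, those of Tlr2 and Tlr3 held a κB site, those of Tlr1 a GAS element and a PU.1 site, and that of Tlr8 a GAS element. Annotated exons covered 159 of the 250 bases in the Tlr2 window, 178 in that of Tlr3 and 211 in the Tlr1 window with the GAS element. No match was found in the Tlr13 window or in the other Tlr6 window, chr5:64960049-64960298, which lies at the upstream start.

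The rest of the pathway was read from lists of its parts, chosen with earlier results of these data known. Between L and WT skin 23.0% of all tested genes rose and 20.2% fell, 43.1% in all, and the lists are read beside these shares. Of 19 tested accessory and trafficking genes, 6 rose and 1 fell, no larger a share called than over all genes (median log2 fold change 0.29, beside 0.06 over all genes). Slc15a3, a peptide and histidine carrier of endolysosomes, had 2.19 to 3.71 CPM in the WT libraries and 5.50 to 25.9 CPM in L, and rose by 2.08 on the log2 scale (SE 0.50, adjusted p = 0.0105). Cd36, a fatty acid carrier and partner of TLR2 that is also abundant in adipocytes and endothelium, fell by 1.79 on the log2 scale, from 1342 to 388 CPM (adjusted p = 0.00258). Rnaset2a, which encodes an endolysosomal RNase, rose by 1.44 (adjusted p = 0.000565). Its near copy Rnaset2b rose by 1.31 (adjusted p = 0.000561), and reads may have been shared between them. Unc93b1, the chaperone that carries endosomal receptors to their compartment, had 42.4 CPM in WT and 34.7 CPM in L (log2 difference -0.29, adjusted p = 0.525) and is named outside the naming rule, after its values were seen.

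Adaptors, kinases and inhibitors likewise had no larger a share called than the 43.1% of all genes. Of 6 adaptors none rose and 2 fell (median -0.41). Tirap, which bridges TLR2 and TLR4 to MyD88, had 17.0 to 21.5 CPM in WT, 15.3 and 17.0 CPM in NL and 5.48 to 11.5 CPM in L, and fell by 1.15 on the log2 scale (adjusted p = 0.00446). Sarm1, the neuronal NADase that also restrains TRIF signalling, fell by 0.87 (adjusted p = 0.0461). Of 20 kinases, ligases and transcription factors, 3 fell and none rose (median 0.10), and the calls were small, with Irak1 at -0.29 (adjusted p = 0.0169), Tab2 at -0.27 (0.03) and Ikbkg at -0.25 (0.0387). Of 10 inhibitors, 2 rose and 1 fell (median 0.10). Socs1, a brake on cytokine signalling, rose by 1.83 (adjusted p = 0.00646), Zc3h12a, an RNase that degrades cytokine transcripts, rose by 1.82 (adjusted p = 0.00037), and the deubiquitinase Cyld fell by 0.38 (adjusted p = 0.046).

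Of 12 tested genes that NF-κB and interferon factors switch on, 9 rose, beside 23.0% of all genes, none fell, beside 20.2%, and 12 lay above 0. Their median log2 fold change was 4.97, beside 0.06 over all genes, and their difference from the receptors was not tested. Cxcl2, a neutrophil chemokine, ran from 0 to 0.223 CPM in WT and from 0.757 to 122 CPM in L, with an L median of 1.38 CPM (adjusted p = 0.0362). Ccl4, a chemokine, had at most 1 count in a WT library and 20 to 699 counts in L (adjusted p = 0.00834). Acod1, the itaconate enzyme of activated myeloid cells, ran from 0 to 0.247 CPM in WT and from 0.378 to 49.7 CPM in L. Its L median was 2.93 CPM (adjusted p = 0.0245). All 3 had WT levels at or near the floor, so no fold is given. Ccl4 had at most 4 counts in NL, and Acod1 at most 10 in WT and 5 in NL. Both thus passed the filter on low counts only through L, which fixed their direction. The counts of genes that rose or lay above 0 and the median of this list are therefore description only. Cxcl2, Ccl4 and Acod1 were each highest in L library 4, far over their other L libraries. Neutrophil markers were also highest there (573 CPM), and their part was not tested.

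Other pattern recognition receptors gave 3 genes higher and 1 lower of 13 (median 0.69), a smaller share called than the 43.1% of all genes. Clec4e, the Mincle receptor, ran from 0.0456 to 1.46 CPM in WT and from 2.22 to 24.3 CPM in L, with an L median of 2.87 CPM (adjusted p = 0.0476). Its lowest WT library, with 2 counts, lay under the floor, so no fold is given. Clec7a, the β-glucan receptor Dectin-1, rose by 2.64 on the log2 scale (adjusted p = 0.00209) and Cgas, the cytosolic DNA sensor, by 0.97 (adjusted p = 0.0023). The 2 mouse Toll-like receptors outside the family list, which sense profilin of protozoa, were Tlr11, with 0.750 CPM in WT and 1.47 CPM in L (log2 difference 0.96, adjusted p = 0.0601), and Tlr12. Tlr12 was called higher (adjusted p = 0.0055), with 1, 0 and 5 counts in WT, 4 and 3 counts in NL and 36, 37, 29 and 28 counts in L. Tlr12 thus passed the filter on low counts only through L, which fixed its direction, so this call is description only. In lymph nodes Tlr12 stood at 13.6 to 18.4 CPM and was called in no comparison.

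**Figure D4:**
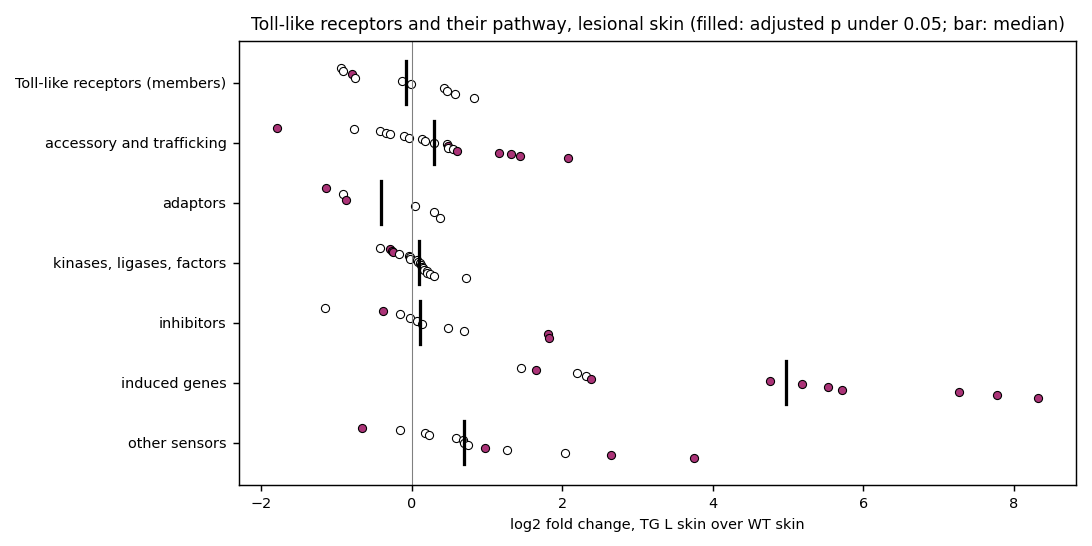
Log2 fold change of each tested gene between L and WT skin, by list, with called genes filled and a bar at each list's median. The members centre on -0.07 with 1 filled point. The induced genes, some of which passed the filter on low counts only through L, centre on 4.97 with 9 filled points of 12.

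How alike the profiles of genes were was measured over the 9 skin libraries, as the root mean square difference of log2 CPM after each gene was centred on its mean. The rule for this covers called members, and for Tlr5 the nearest genes were Adam23 (0.14), Tnfsf12 (0.15) and Pcdhb12 (0.16). Others are named after their values were seen. Tlr7 and Tlr8 were close to each other (0.22). Among the 19100 other tested genes, Tlr7 was the nearest to Tlr8, and Tlr8 came next to Tlr7 after Susd1 (0.20) and Cd300ld5 (0.20). For Tlr13 the nearest gene was Ms4a6d (0.14), and Tlr1 was its nearest family member, ranked 19. These are descriptions over libraries that differ widely in tissue makeup.

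In lymph nodes, the fourth comparison asked what UVB did in WT mice. None of the 10 members was called by edgeR, where 4.98% of all genes were called (2.92% higher, 2.06% lower), and 2 members had an unadjusted p under 0.05, where 26.3% of all genes did. The same 2, Tlr1 and Tlr4, had groups that did not overlap, beside 37.1% of all genes. Tlr4 had 13.5, 14.5 and 11.4 CPM without UV and 19.7, 19.8 and 15.9 CPM after UV, a log2 difference of 0.49 (SE 0.15, unadjusted p = 0.00604, adjusted p = 0.0734). It passed the threshold with DESeq2 (adjusted p = 0.0288) and when only these 6 libraries were fitted (0.0315). Tlr1 had 138 to 152 CPM without UV and 165 to 180 CPM after UV (log2 difference 0.24, SE 0.11, adjusted p = 0.162). The share of all genes called rested on few libraries, with 277, 190 and 7 genes called in place of 805 without WT library 1, 2 or 3 (no UV) and 493, 0 and 29 without WT library 7, 8 or 9 (UV).

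The other members had log2 differences from -0.66 (Tlr3, SE 0.36, adjusted p = 0.264) to 0.18 (Tlr13, SE 0.36, adjusted p = 0.792). Of the pathway lists, Hsp90b1, the chaperone gp96 that folds most Toll-like receptors, rose from 447 ± 28.5 to 597 ± 76.6 CPM (SD, n = 3 each, log2 fold change 0.42, adjusted p = 0.0422). It was the only accessory gene of 19 to be called, where 4.98% of all genes were. Of the inhibitors, 2 of 10 rose, beside 2.92% of all genes, Zc3h12a by 0.76 (adjusted p = 0.0261) and Socs1 by 0.56 (adjusted p = 0.0325). Tab1, which activates the kinase TAK1, fell by 0.74 (adjusted p = 0.0347). It was the only called gene of 20 kinases, ligases and factors. The accessory and kinase lists thus lay near the share over all genes. These genes were not followed through the fits that left out a library, where calls over all genes fell to as few as 0. In WT nodes, fibroblast markers summed to 32.3 to 47.7 CPM without UV and 9.23 to 25.4 CPM after UV, endothelial markers to 273 to 322 and 198 to 236 CPM, and T cell markers to 2075 to 2080 and 1622 to 1841 CPM. Their part in these results was not tested.

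The fifth comparison asked the same in TG mice. None of the 10 members was called, nor was any of the 16173 genes by edgeR (DESeq2 called 118), and 4 members had an unadjusted p under 0.05, beside 9.32% of all genes. Tlr3 had 2.59, 2.81 and 2.56 CPM without UV and 3.43, 8.46 and 4.86 CPM after UV (log2 difference 1.07, SE 0.37, unadjusted p = 0.013, adjusted p = 0.413). Its 3 libraries without UV lay closely together under all 3 after UV, which were spread widely. Tlr7 had 22.4, 15.6 and 20.4 CPM without UV and 21.7, 40.8 and 33.3 CPM after UV (log2 difference 0.71, SE 0.28, adjusted p = 0.467). Tlr6 (34.0 ± 4.17 and 42.1 ± 1.86 CPM, log2 difference 0.31, SE 0.11) and Tlr1 (137 ± 9.12 and 169 ± 27.1 CPM, log2 difference 0.30, SE 0.11) each had an adjusted p of 0.413. Tlr3, Tlr5 and Tlr6, 3 of 10, had groups without overlap, beside 13.3% of all genes, and Tlr5 did so at 5 to 18 counts.

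The sixth comparison set TG against WT nodes without UV. No member was called and no gene of 16173 was called by edgeR, DESeq2 called 4 genes and no member, and 2 members had an unadjusted p under 0.05, beside 3.39% of all genes. Tlr3 had 4.10, 10.8 and 6.88 CPM in WT, all over the TG libraries at 2.56 to 2.81 CPM (log2 difference -1.45, SE 0.37, 95% confidence interval -2.25 to -0.64, unadjusted p = 0.00186, adjusted p = 1). Tlr7 had 31.7, 39.5 and 33.1 CPM in WT, all over the TG libraries at 15.6 to 22.4 CPM (log2 difference -0.84, SE 0.28, unadjusted p = 0.0119, adjusted p = 1). Together with Tlr6, 3 of 10 members lay lower in every TG library, where 10.5% of all genes had groups without overlap. Across the alternatives the adjusted p of Tlr3 stayed between 0.099 and 1.

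The seventh comparison set TG against WT nodes after UV. No member was called, no gene was called by edgeR (DESeq2 called 12 genes and no member), 1 member had an unadjusted p under 0.05, beside 6.99% of all genes, and no member had groups without overlap, beside 9.71% of all genes. That member was Tlr4, with 14.7 ± 2.23 CPM in TG and 18.5 ± 2.24 CPM in WT (SD, n = 3 each, log2 difference -0.33, SE 0.15, unadjusted p = 0.0499, adjusted p = 0.714). Tlr7 (21.7 to 40.8 against 19.1 to 36.3 CPM) and Tlr3 (3.43 to 8.46 against 3.51 to 6.04 CPM) overlapped widely between the groups. Tlr9, at 50.8 ± 10.7 CPM in TG and 42.5 ± 5.44 CPM in WT, had a log2 difference of 0.26 (SE 0.24, adjusted p = 0.846).

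Whether the UV response differed between TG and WT nodes was tested as an interaction. None of the members and none of the 16173 genes was called (DESeq2 called 8 genes and no member), and 3 members had an unadjusted p under 0.05, beside 5.45% of all genes. These were Tlr3 (log2 difference of the responses 1.72, SE 0.52, unadjusted p = 0.00549), Tlr7 (1.19, SE 0.39, unadjusted p = 0.0111) and Tlr6 (0.44, SE 0.15, unadjusted p = 0.0124), each with an adjusted p of 0.848. Tlr3 and Tlr7 were lower after UV in WT means and higher in TG means. The TG libraries without UV, low for both genes, enter this test and the fifth and sixth comparisons alike, so these results are not independent.

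Tlr3 in lymph nodes varied between libraries together with Irf7, the interferon regulatory factor downstream of TLR7 and TLR9, and Ifih1, the cytosolic RNA sensor MDA5, both interferon-stimulated genes. Over the 12 libraries Ifih1 (0.20) and Irf7 (0.21) were the nearest genes to Tlr3 after Gm6545 (0.19), and they are named after their values were seen. In WT nodes without UV, Irf7 had 78.7, 208 and 112 CPM in the libraries where Tlr3 had 4.10, 10.8 and 6.88 CPM. In TG nodes without UV it had 49.9, 39.9 and 38.7 CPM. After UV it had 50.4, 64.9 and 120 CPM in WT and 69.6, 185 and 77.2 CPM in TG, so that WT library 9 and TG library 11 were highest for both genes. Irf7 itself passed no test in nodes (TG against WT without UV, log2 difference -1.63, SE 0.51, adjusted p = 1). For Tlr7 the nearest genes were Ly6c1 (0.16), Pml (0.17) and Trim30a (0.18).

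Tlr9 and the B cell markers were set side by side for the same reason, since B cells carry TLR9 in lymph nodes. TG library 5 without UV had the lowest Tlr9 of all nodes, 26.2 CPM, where the other 11 libraries had 38.9 to 62.4 CPM, and also the lowest sum of the 6 B cell markers, 1244 CPM, where the others had 1876 to 2404 CPM. Its part in the TG mean of 42.6 ± 14.9 CPM was not tested. T cell markers summed to 1622 to 2143 CPM over the 12 libraries, and keratinocyte markers to at most 2.95 CPM, beside 10073 to 26652 CPM in skin.

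**Figure D5:**
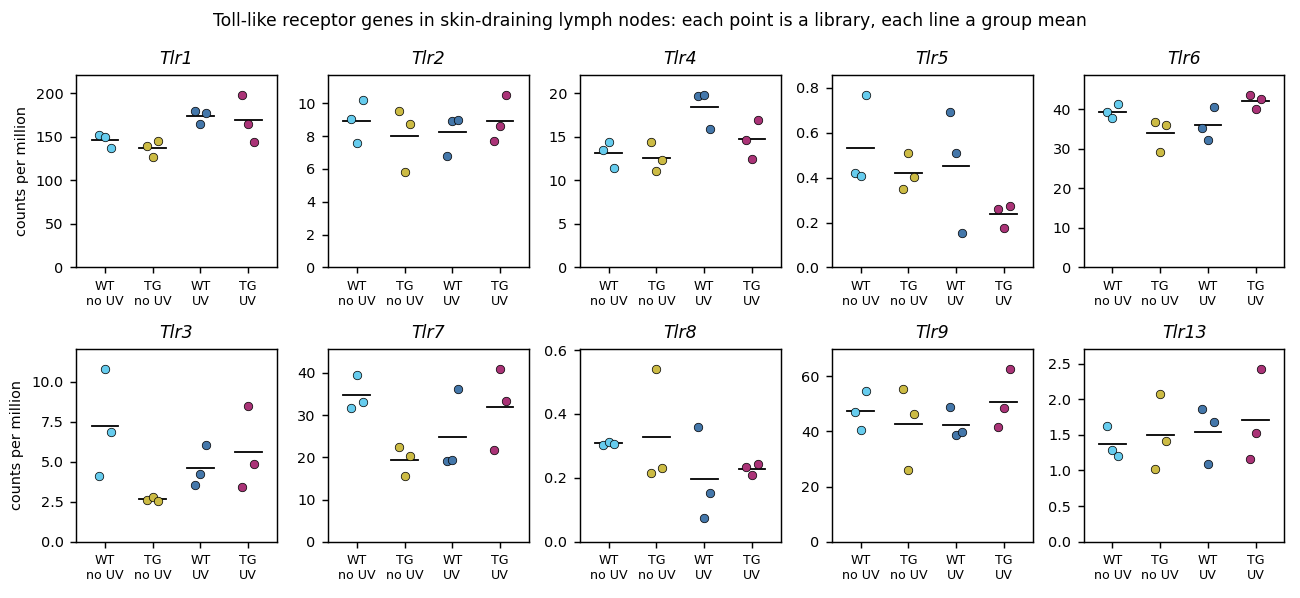
CPM of each member in inguinal lymph nodes, on linear axes from 0, with 1 point per library and a line at each group mean (3 libraries in each of 4 groups). Tlr3 and Tlr7 are low in all 3 TG libraries without UV (2.56 to 2.81 and 15.6 to 22.4 CPM), and the mean of Tlr4 is highest in WT nodes after UV.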

How the data were processed

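RNA was measured in 9 skin and 12 lymph node libraries. Per the submitters' notes and methods, the authors trimmed reads with cutadapt 4.8, aligned them to GRCm38 with STAR 2.7.8a, and deposited expected counts per gene from RSEM 1.3.3. These were whole numbers as deposited and were not normalized; the annotation release and strandedness are not given in the sources used here. RSEM divides reads that match several genes between them by estimate, which touches Tlr1 and Tlr6.

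From these counts, genes were kept by filterByExpr with groups given (minimum 10, total 15), scaled by TMM and fitted over all libraries of a tissue with edgeR 4.0.16 in R 4.3.3 (quasi-likelihood F-test, robust). Standard errors were derived from F. Depth is given in the report. The pipeline was tested on simulated counts. Alternatives were DESeq2 1.42.0 (the study's tool), RLE and upper-quartile scaling, no filter, at least 10 counts in every library, only the groups compared, no robust estimation, Xist as a covariate, glmTreat against a log2 fold change of 1, each library left out in turn and, chosen after seeing the data, NL 3 and L 6 left out together. Replicates of no pair agreed within sampling noise.

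The members and lists were chosen with earlier results of these data known. All members were named, from each list at most the 3 called genes with the largest change, and the 3 genes nearest to each called member; exceptions are stated. Marker lists were summed CPM of hand-written genes.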

Additional observations from a re-analysis of the deposited data

Results flagged for a closer look

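Tlr9 in L skin was the only member for which 1 library stood far from the rest of a group of 4 or more. Its gap to the nearest library was 0.935 of the group's range, over Dixon's 95% critical value for 4 samples. The library, L 5, had 2.37 CPM and the others 4.8 to 4.97 CPM. Chance flags about 1 in 20 groups, and 10 were tested. Library 5 was also lowest in the group for 7 members. It was lowest too for macrophage, monocyte, plasmacytoid dendritic cell, endothelial, mast cell, adipocyte and skeletal muscle markers. The part of these in the gap was not tested.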

How the results depend on the processing

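No paired analysis was possible because the labels number every library separately and no number is shared between groups. In L versus WT skin edgeR called 1 member, DESeq2 3, the filter of at least 10 counts in every library 2, the Xist covariate 2, glmTreat 0 and the fit without NL 3 and L 6 0, and leaving out 1 library gave 0 to 2. In L versus NL skin DESeq2 called 1 member in place of 0, and leaving out 1 library gave 0 to 2. In UV versus no UV, WT nodes, DESeq2 and the fit of the compared groups called 1 member each in place of 0. The other 5 comparisons had 0 members called under every alternative. For a single member, no called difference changed its direction. Of all genes, glmTreat called 1732 (L versus WT), 749 (L versus NL) and 0 (UV in WT nodes), the fit without NL 3 and L 6 called 391 in L versus NL skin in place of 4782, leaving out NL 2 or NL 3 called 1470 and 1182 there, and the compared groups alone called 3156. In UV versus no UV, WT nodes, DESeq2 called 1942 genes, the compared groups alone 2431 and the Xist covariate 171. No gene was called in UV versus no UV, TG nodes, except 118 with DESeq2 and 236 without TG library 12 after UV. In the other node comparisons, where edgeR called 0 genes, DESeq2 called 4 to 12 and single settings 1 or 2. A fit that left 1 NL library assumes that it varies like the other groups. Tlr5 and Tlr8 in nodes lie near the floor, and at least 10 counts in every library gave them no value there.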
